A study of Homo sapiens with 6 samples.

Results

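The kinesin genes other than KIF23 and KIF20A were followed through the RNA immunoprecipitation data of a study of the acetyltransferase NAT10 in colorectal cancer (CRC). The members were the protein-coding rows of the RIP table whose symbol is KIF or KIFC with a number and, at most, a letter from A to C, which gave 40 genes of the 58302 listed, 19847 of them protein-coding. By role, 13 were sorted as mitotic kinesins, 17 as transport kinesins and 10 as other kinesins of cilia, centrioles and signalling. The study sequenced 6 libraries from the human CRC cell lines SW480 and DLD-1, both labelled WT with no treatment, with a lone library for each group. Each line gave 1 Input of total RNA, 1 library of RNA pulled down with NAT10 (RIP) and 1 library of RNA pulled down with an antibody against N4-acetylcytidine (acRIP). With no replicates, every difference below compares libraries and was not tested. The errors given are standard errors of counting alone.

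Kinesins are motor proteins that use ATP to walk along microtubules or to take their ends apart. Mitotic kinesins build the spindle, move chromosomes and complete cell division, and their transcripts rise as cells approach mitosis. Transport kinesins carry vesicles, organelles and RNA through the cytoplasm of dividing and resting cells alike. NAT10 is the enzyme that places acetyl groups on cytidine, giving ac4C, in ribosomal, transfer and messenger RNA, and a RIP/Input ratio was used in the study to ask which transcripts it holds.

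The RIP and Input libraries did not pair by their labels. Over the 38 kinesin genes above 0 in at least 1 library, the RIP library labelled SW480 had, on the log2(FPKM + 1) scale, a Pearson r of 0.963 with the Input labelled DLD-1 and 0.890 with the Input of its own label. The RIP library labelled DLD-1 had an r of 0.981 with the Input labelled SW480 and 0.836 with the Input labelled DLD-1. The same order held over 16196 protein-coding genes, at 0.944 against 0.871 and at 0.951 against 0.856. These values are descriptions across genes that share libraries. For this reason each RIP library is set against both Inputs, the Input of the same label and the opposite-label Input, and cell lines are named as the label of a library. Each of the 4 libraries kept between 12330122 and 27679370 whole reads, recovered from the FPKM values, and 28039 to 61148 of these lay on the kinesins. The epithelial markers EPCAM, CDH1, KRT8, KRT18 and CDX2 were present in all 4 libraries, at a summed level with VIL1 of 1212 and 1400 FPKM in the RIP labelled SW480 and the Input labelled DLD-1 and of 2808 and 2492 FPKM in the Input labelled SW480 and the RIP labelled DLD-1. VIL1 was low, at 0.261 to 1.24 FPKM. The markers PTPRC, CD3E, CD68, PECAM1, COL1A1 and ALB of other cell types summed to 0.0873 to 0.678 FPKM, with CD3E and ALB at 0 throughout.

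The kinesins spanned a wide range of levels. FPKM counts fragments against transcript length in kilobases and library size, and is used here to compare genes per length. KIF5B, the heavy chain of conventional kinesin, was the highest member in all 4 libraries, at 67.5 to 107 FPKM, and took 17.2% to 22.3% of the summed kinesin FPKM. KIF2C, at 20.5 to 58.5 FPKM, was the highest mitotic member in the Input libraries and the RIP labelled DLD-1. In all, 33 of the 40 members were above 0 in all 4 libraries, and KIF2B and KIF19 were at 0 in all 4. An Input of at least 1 FPKM in both Inputs, the condition for a ratio here, was met by 28 members, of which 11 were mitotic, 13 transport and 4 other kinesins. The summed FPKM of the mitotic class was 45.5% of the kinesin total in the Input labelled SW480 and 49.2% in the RIP labelled DLD-1. In the RIP labelled SW480 it was 37.3%, and in the Input labelled DLD-1 33.7%.

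**Figure D1:**
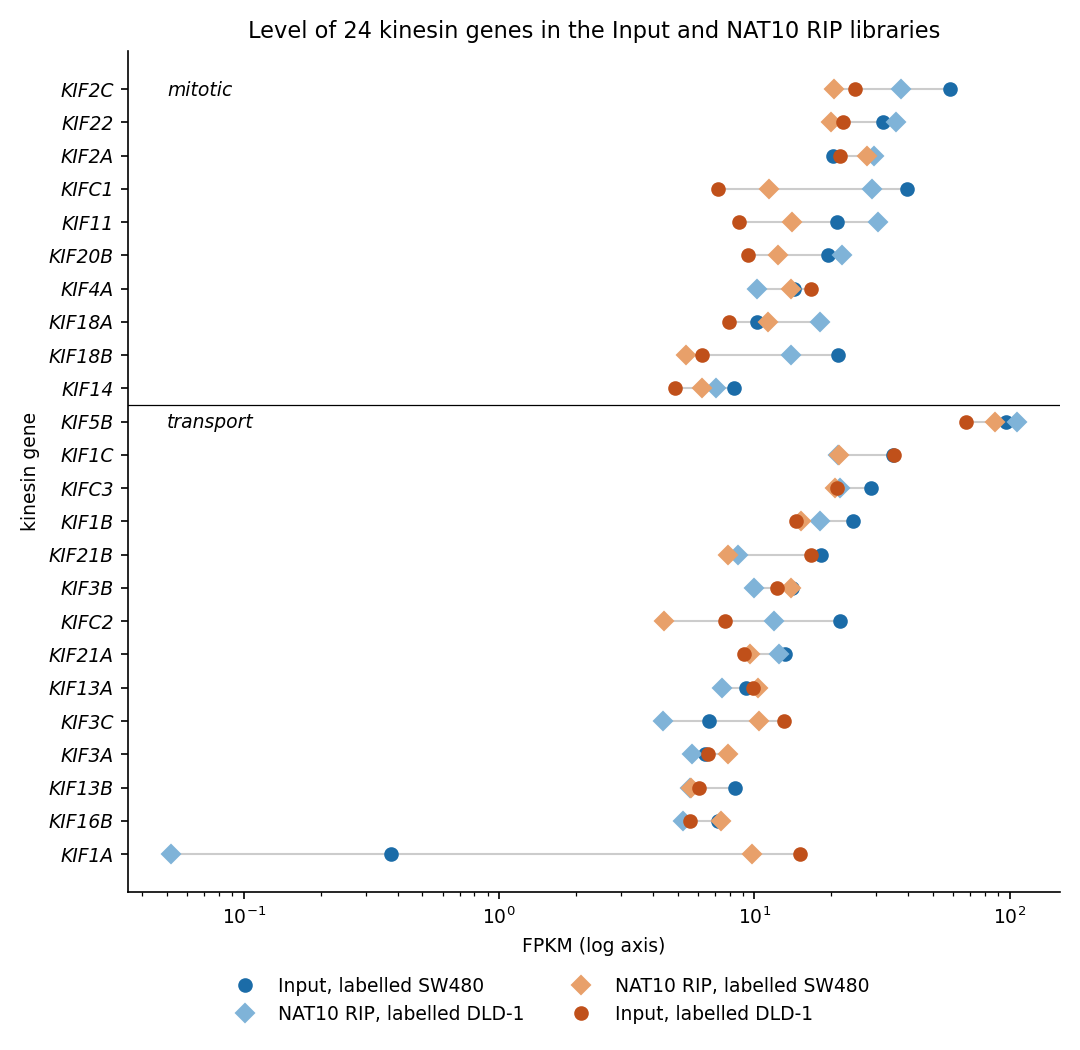
FPKM (log axis) of the 24 kinesin genes with a mean of at least 5 FPKM or an ac4C peak in both lines, with 1 point per library. Circles are Inputs, diamonds are NAT10 RIP libraries, and blue marks the Input labelled SW480 and the RIP labelled DLD-1. For KIFC1, KIF11 and KIF18B the blue points lie to the right of the orange ones, whereas KIF1A shows the opposite order with a gap from 0.378 to 9.79 FPKM.

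Mitotic kinesins were higher in the Input labelled SW480 than in the Input labelled DLD-1, and higher in the RIP labelled DLD-1 than in the RIP labelled SW480. The median log2 difference between Inputs, log2((FPKM + 1)/(FPKM + 1)), was 0.96 over the 11 mitotic members, 9 of them higher with label SW480, against a median of -0.03 over 10350 protein-coding genes tested. Between the RIP libraries the median, SW480 over DLD-1, was -0.78, with 10 of 11 lower, against 0.05 over all. Of the protein-coding genes tested, 48.0% were higher with label SW480 in Input and 46.3% lower with it in RIP. For 8 of the 11 (KIF11, KIF14, KIF15, KIF18B, KIF20B, KIF22, KIF2C and KIFC1) the Input labelled SW480 and the RIP labelled DLD-1 both lay above the other libraries, an order held by 19.8% of the protein-coding genes tested. In bulk RNA, fewer cells in division and less RNA per dividing cell cannot be told apart. The epithelial marker sum moved in the same direction, and its part in these values was not tested.

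The kinesins that set the spacing and number of spindle poles, KIF11, KIF15 and KIFC1, all held the crossed order. KIF11, which slides antiparallel microtubules to make the spindle bipolar, stood at 21.0 FPKM in the Input and 14.1 FPKM in the RIP labelled SW480, and at 8.69 FPKM in the Input and 30.5 FPKM in the RIP labelled DLD-1. Its log2 RIP/Input was -0.54 ± 0.047 for label SW480 and 1.70 ± 0.059 for label DLD-1, on opposite sides of 0. KIF15, which can stand in for KIF11, was lower throughout, at 7.36, 4.02, 2.43 and 5.90 FPKM in the same order. The ratios of KIF15 were -0.74 ± 0.074 and 1.01 ± 0.093. KIFC1, the minus-end motor that gathers extra centrosomes into poles, spread the most among the mitotic members with a ratio. It stood at 39.5 FPKM in the Input and 11.5 in the RIP labelled SW480, and at 7.17 in the Input and 28.9 in the RIP labelled DLD-1. The Input labelled SW480 was 4.96-fold above that labelled DLD-1 on the FPKM + 1 scale. The ratio of KIFC1 turned from -1.70 ± 0.056 to 1.87 ± 0.084.

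Among the kinesins that shorten or cap microtubules the members differed. KIF2C, which takes apart microtubule ends at kinetochores, was at 58.5 FPKM in the Input and 20.5 in the RIP labelled SW480, and at 24.7 and 37.5 in those labelled DLD-1. Its ratio was -1.47 ± 0.043 and 0.58 ± 0.052. KIF18B, which shortens astral microtubules, gave 21.2 and 5.39 FPKM with label SW480 and 6.25 and 13.9 FPKM with label DLD-1. The fall to -1.80 ± 0.060 in label SW480 was the lowest mitotic ratio with the same label. Set against the opposite-label Input, KIF18B was at -0.18 ± 0.081 and -0.57 ± 0.052, and KIF2C at -0.26 ± 0.055 and -0.63 ± 0.039. KIF18A, which damps the movements of aligned chromosomes, was instead above Input under both labels, with 10.2 and 11.3 FPKM in Input and RIP labelled SW480 and 7.93 and 18.1 FPKM in those labelled DLD-1. Its ratio was 0.14 ± 0.069 in label SW480, under the median of 0.18 over all protein-coding genes tested, and 1.10 ± 0.074 in label DLD-1. KIF2A, a depolymerase of spindle poles that also works in resting cells, stood apart from KIF2C with 20.4 and 21.7 FPKM in the Inputs and 27.6 and 29.5 FPKM in the RIP libraries. For KIF18A and KIF2A alike, both RIP values lay above both Input values. The share of all protein-coding genes in this order is not given here, so it is not read as a trait of these members.

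The chromosome-bound kinesins went different ways. KIF22, which pushes chromosome arms away from the poles, followed the crossed order at 31.8 and 19.9 FPKM in Input and RIP labelled SW480 and 22.2 and 36.0 FPKM in those labelled DLD-1. KIF4A, which shapes chromosome arms and the central spindle, was at 14.2 and 13.9 FPKM with label SW480 and at 16.6 and 10.2 FPKM with label DLD-1. KIF4A was the 1 mitotic member with a RIP/Input ratio below 0 in label DLD-1 against the Input of the same label, at -0.65 ± 0.059. Against the opposite-label Input it was at -0.44 ± 0.060, and 6 of the 11 mitotic members were then below 0, against 44.9% of protein-coding genes. Its intronless copy KIF4B had 0 to 17 reads per library, and reads may be shared between the copies. The kinesins of cell separation, KIF14 and KIF20B, both followed the crossed order. KIF20B stood at 19.4 and 12.4 FPKM in Input and RIP labelled SW480 and at 9.43 and 22.0 FPKM in those labelled DLD-1. KIF14 spanned a narrower range, at 8.34, 6.24, 4.87 and 7.05 FPKM in that order.

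Set against the Input of the same label, the mitotic class thus lay below Input with label SW480 and above it with label DLD-1. The median log2 RIP/Input was -0.61 in label SW480, with 9 of 11 below 0, and 1.01 in label DLD-1, with 10 of 11 above 0. The medians over all protein-coding genes tested were 0.18 and 0.07, with 42.0% below 0 in label SW480 and 52.9% above 0 in label DLD-1. At least 2-fold below Input in label SW480 were 3 mitotic members (KIF18B, KIF2C and KIFC1) and 2 transport members (KIF21B and KIFC2), which is 5 of the 28 kinesins against 9.17% of protein-coding genes. No kinesin with a ratio was 2-fold above Input there, against 17.4% of protein-coding genes. In label DLD-1, 6 mitotic members (KIF11, KIF15, KIF18A, KIF18B, KIF20B and KIFC1) were at least 2-fold above Input, 21.4% of the 28 kinesins against 16.7% of protein-coding genes. KIF26A and KIF3C were at least 2-fold below, 7.14% of the kinesins against 12.8%.

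Over the opposite-label Input the mitotic ratios lay nearer 0. The mitotic median was 0.34 for the RIP labelled SW480 over the Input labelled DLD-1 and -0.22 for the RIP labelled DLD-1 over the Input labelled SW480. The median over all 28 kinesins went from -0.43 to 0.06 for the RIP labelled SW480, but from 0.19 to -0.39 for the RIP labelled DLD-1, where the transport and other kinesins moved away from 0. None of the 28 kinesins was 2-fold from Input in either direction, though KIF21B fell just short of 2-fold below, at -0.999 and -0.993. Of protein-coding genes, 10.1% were 2-fold above and 3.93% 2-fold below in the former comparison, and 10.0% and 4.51% in the latter. KIFC1 was at 0.61 ± 0.090 and -0.44 ± 0.047, and KIF11 at 0.64 ± 0.062 and 0.52 ± 0.042. The Inputs in the table deposited with the acRIP data were assigned to the same Input samples and are not counted as replicates. They gave mitotic medians of -1.07 and 0.76 with the same label and of -0.02 and -0.47 with the other label.

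**Figure D2:**
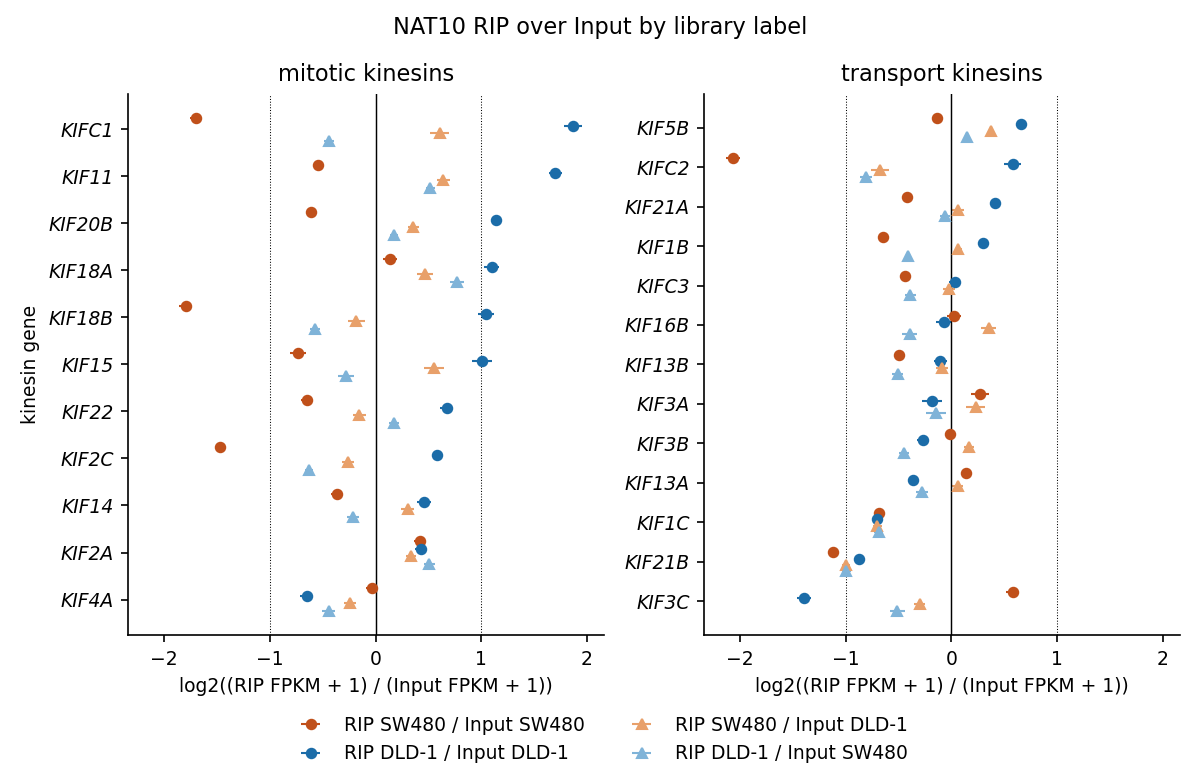
log2((RIP FPKM + 1)/(Input FPKM + 1)) of the 11 mitotic and 13 transport kinesins with an Input of at least 1 FPKM, with bars of 1 counting standard error. Circles use the Input of the same label and triangles the Input of the other label, and dotted lines mark 2-fold. The mitotic circles of the labels lie apart, at medians of -0.61 and 1.01, and all triangles lie between the dotted lines.

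The difference between labels was also taken between the Inputs and between the RIP libraries, comparisons that share no library. At least 2-fold higher in the Input labelled SW480 were KIF11, KIF15, KIF18B, KIF2C, KIFC1 and KIFC2, 6 of the 28 kinesins against 6.66% of protein-coding genes, and none was 2-fold lower, against 8.95%. In the RIP libraries 4 kinesins (KIF11, KIF18B, KIFC1 and KIFC2) were at least 2-fold lower with label SW480, against 5.65% of protein-coding genes, and KIF26A and KIF3C were at least 2-fold higher, against 7.99%. The Input and RIP differences had opposite signs in 10 of 11 mitotic, 10 of 13 transport and 2 of 4 other kinesins, 78.6% of the 28 in all. Over all protein-coding genes tested this share was 78.3%, close to that of the kinesins. The RIP/Input ratio with the same label lay on opposite sides of 0 in the labels, by more than 2 counting standard errors in each, for 8 of 11 mitotic, 6 of 13 transport and 1 of 4 other kinesins, against 36.0% of protein-coding genes. This share also depends on the number of reads of a gene. Pearson r between the Input and RIP differences was -0.883 over the 28 kinesins and -0.845 over 10350 protein-coding genes. The Inputs of the acRIP table, assigned to the same Input samples, gave a mitotic median of 0.90, with the same sign as in the RIP table for all 11 members.

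**Figure D3:**
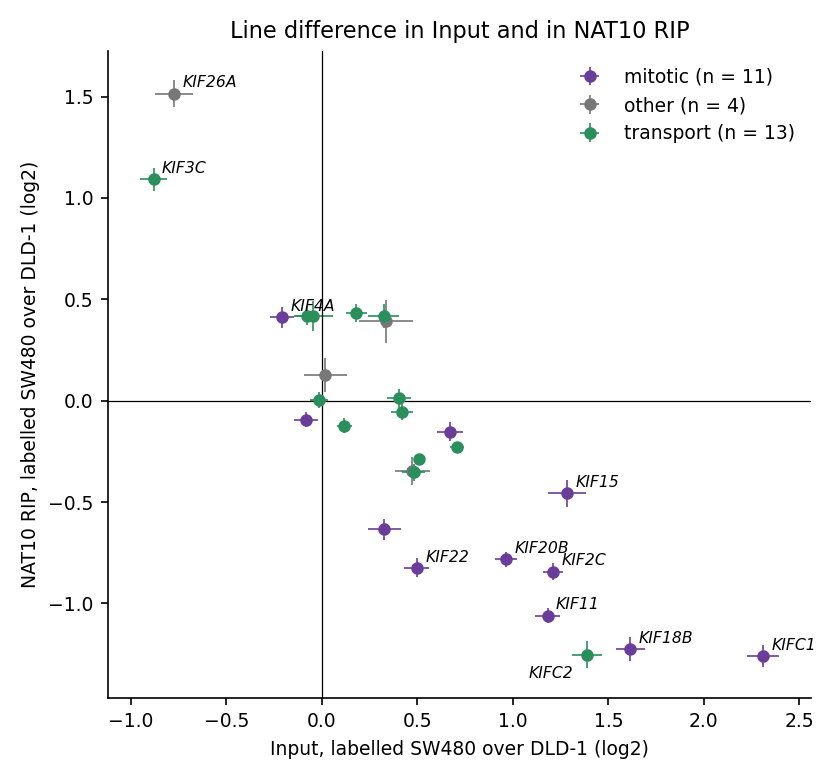
Log2 difference of the 28 kinesins between libraries labelled SW480 and DLD-1, in Input on the horizontal axis and in NAT10 RIP on the vertical axis, on the FPKM + 1 scale with bars of 1 counting standard error. KIFC1, KIF18B, KIF11 and KIF2C lie at the lower right and KIF26A and KIF3C at the upper left, with a Pearson r of -0.883.

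The promoters of the mitotic members also shared short words that most transport members lacked. The words were looked for, after the values had been seen, in the 300 bases around each start site in the RefSeq table of GRCh38.p14, where 32 of the 40 members were found. KIF13B, KIF19, KIF21B, KIF26B, KIF27, KIF5A, KIFC2 and KIFC3 had no entry. The CCAAT word (CCAAT or its other strand ATTGG) is the core of the site of NF-Y. The cell cycle homology words (TTTGAA, which reads TTCAAA on the other strand, or TTTAAA or also TTCGAA, which read alike on either) are the core of the element read by the MuvB complexes that switch late cell cycle genes. A cell cycle homology word was present for 10 of the 11 mitotic members with a ratio, KIF2A being the exception, and for 2 of 9 transport members. A CCAAT word was present for 8 of the 11 and 3 of the 9, and both words together for 8 and 1. Counted by gene in the same way, 22.1% of the 8214 protein-coding genes with such an Input and an entry held a cell cycle homology word, 43.6% a CCAAT word and 9.42% both. Among all 35116 promoters of the table the shares were 25.1%, 34.6% and 9.70%. The 28-base windows below show the words in capitals. They cover KIFC1, KIF11, KIF18B and KIF2C, which had wide differences between labels, and KIF22. KIF4A, which did not follow the crossed order, and the transport member KIF5B, which did, are also shown. KIF2C and KIF15 held no CCAAT word.
KIFC1 CCAAT word, chr6:33391766-33391793, plus strand: cgacagcgacgATTGGtccctgcgtgca
KIFC1 cell cycle homology word, chr6:33391816-33391843, plus strand: ggccgttggaaTTCAAAagtggcgggtg
KIF11 CCAAT word, chr10:92593066-92593093, plus strand: ccagcgcagccATTGGtccggctactct
KIF11 cell cycle homology word, chr10:92593091-92593118, plus strand: tctgtctctttTTCAAAttgaggcgccg
KIF18B CCAAT word, chr17:44947789-44947816, minus strand: acggacgctgaCCAATaggaagcacggt
KIF18B cell cycle homology word, chr17:44947755-44947782, minus strand: cgcccggctaaTTTGAAcgcaaggcgcc
KIF22 CCAAT word, chr16:29790674-29790701, plus strand: gcgtagtcttgATTGGtggaacctggga
KIF22 cell cycle homology word, chr16:29790713-29790740, plus strand: gcaccggggaaTTCGAAtgggagaggcg
KIF2C cell cycle homology word, chr1:44739823-44739850, plus strand: tgcgcgcgggaTTTAAActgcggcggtt
KIF4A CCAAT word, chrX:70290035-70290062, plus strand: tccgcactgcaATTGGttggcgtctccg
KIF4A cell cycle homology word, chrX:70290059-70290086, plus strand: tccgggacggaTTTGAAacttggcggtt
KIF5B CCAAT word, chr10:32056468-32056495, minus strand: cgcgcgcaccgATTGGtcgccgggccgc
KIF5B cell cycle homology word, chr10:32056549-32056576, minus strand: gtgcagtaaaaTTTGAAtctgcgacccc
Spacing was counted from the CCAAT word nearest the start to the cell cycle homology word furthest downstream. The words of the 8 mitotic members with both began 23 bases apart in KIF14, 24 in KIF4A, 25 in KIF11, 34 in KIF18B, 35 in KIF18A, 39 in KIF22, 50 in KIFC1 and 128 in KIF20B. In KIF5B, a transport member that also followed the crossed order, they came in the reverse order and 81 bases apart. Of the other transport members in the crossed order, KIF1B held a CCAAT word alone and KIF21A neither word. KIFC2 and KIFC3 had no entry. KIF4A and KIF18A held both words and did not follow the crossed order, and KIF2A, which also did not, held neither. Of the 3 other kinesins with a ratio and an entry, 1, KIF24, held both words, and it followed the crossed order. A match of letters is a description of these windows and not a bound site. Any link between the words and the levels was not tested.

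The transport medians lay nearer 0 than the mitotic ones over the Input of the same label, between Inputs and between RIP libraries. Single members lay on both sides of 0, from -2.06 to 0.58 in label SW480. Their median log2 RIP/Input was -0.42 in label SW480, with 9 of 13 below 0, and -0.10 in label DLD-1, with 8 of 13 below 0. Of protein-coding genes tested, 42.0% and 47.1% were below 0. The transport median in label SW480 was -0.14 without KIF21A and KIF21B and -0.049 with no filter on Input. Over the opposite-label Input the transport medians were 0.06 and -0.41. In the former 6 of 13 were below 0, against 43.0% of protein-coding genes, and in the latter 12 of 13, against 44.9%. The latter median lay further from 0 than the mitotic median of -0.22. Between Inputs the median was 0.32 and between RIP libraries 0.00. The crossed order of the mitotic members was shared by 5 of 13 (KIF1B, KIF21A, KIF5B, KIFC2 and KIFC3), and the reverse order, with the Input labelled DLD-1 and the RIP labelled SW480 above the others, by KIF13A, KIF3A and KIF3C. Of the protein-coding genes tested, 24.7% held the reverse order.

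KIF5B was at 96.6 and 87.8 FPKM in Input and RIP labelled SW480 and at 67.5 and 107 FPKM in those labelled DLD-1. Its log2 RIP/Input was -0.14 ± 0.019 and 0.66 ± 0.022, the highest transport ratio in label DLD-1. Its neuronal relatives KIF5A and KIF5C reached at most 0.377 and 0.185 FPKM. KIF5A had no read in the Input labelled SW480 and 27 in the Input labelled DLD-1, at least 9.75-fold higher against a floor of 3 reads in the library at 0.

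The KIF1 genes differed most among themselves. KIF1A, the carrier of synaptic vesicle precursors in neurons, was close to absent in one pair of libraries, at 0.378 FPKM (51 reads) in the Input labelled SW480 and 0.0517 FPKM (12 reads) in the RIP labelled DLD-1. It reached 15.1 FPKM (1880 reads) in the Input labelled DLD-1 and 9.79 FPKM (2675 reads) in the RIP labelled SW480. Its log2 RIP/Input was therefore 2.97 ± 0.061 in label SW480 and -3.94 ± 0.037 in label DLD-1, and -0.58 ± 0.040 and -0.39 ± 0.059 over the opposite-label Input. It is outside the counts above because its Input labelled SW480 was under 1 FPKM. KIF1B, which carries mitochondria and vesicles, was at 24.3 and 15.2 FPKM in Input and RIP labelled SW480 and 14.5 and 18.0 FPKM in those labelled DLD-1. KIF1C, a carrier of vesicles and of RNA, was alike under both labels, at 35.0 and 35.4 FPKM in the Inputs and 21.4 and 21.4 FPKM in the RIP libraries. Its ratios were -0.69 ± 0.042 and -0.70 ± 0.044 with the same label, and -0.70 ± 0.042 and -0.69 ± 0.043 over the opposite-label Input.

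KIF21B, which slows microtubule growth, resembled KIF1C. It stood at 18.2 and 16.7 FPKM in the Inputs and at 7.86 and 8.65 FPKM in the RIP libraries. Its ratios were -1.12 ± 0.038 and -0.88 ± 0.040 with the same label, and -0.999 ± 0.039 and -0.993 ± 0.039 over the opposite-label Input. For KIF21B, as for KIF1C, both RIP values lay below both Input values, an order whose share over all protein-coding genes is not given here. KIF21A, the close relative of KIF21B, was at 13.1 and 9.58 FPKM in Input and RIP labelled SW480 and at 9.12 and 12.5 FPKM in those labelled DLD-1, with ratios on opposite sides of 0.

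The kinesin-2 motors, which carry cargo into cilia and along the cytoplasm, split by subunit. KIF3C was at 6.66 and 10.4 FPKM in Input and RIP labelled SW480 and at 13.1 and 4.37 FPKM in those labelled DLD-1. Its ratio fell from 0.58 ± 0.063 in label SW480 to -1.39 ± 0.064 in label DLD-1. Its partners moved less: KIF3A ranged from 5.67 to 7.91 FPKM and KIF3B from 10.0 to 14.0 FPKM, each lowest in the RIP labelled DLD-1. The endosome carriers KIF13A, KIF13B and KIF16B ranged from 7.48 to 10.3, from 5.58 to 8.36 and from 5.27 to 7.38 FPKM, with log2 ratios between -0.50 and 0.14 under the same label.

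The minus-end motors of this class were unlike each other. KIFC2 gave 21.7 FPKM in the Input and 4.43 in the RIP labelled SW480, and 7.68 and 11.96 FPKM in those labelled DLD-1. Its ratio of -2.06 ± 0.067 in label SW480 was the lowest of the 28 kinesins, against 0.58 ± 0.077 in label DLD-1. KIFC2 was also below Input over the other label, at -0.68 ± 0.085 and -0.81 ± 0.057. KIFC3, a motor at cell junctions, was at 28.5 and 20.8 FPKM in Input and RIP labelled SW480 and at 21.1 and 21.6 FPKM in those labelled DLD-1.

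The 10 other kinesins were low, with at most 4.32 FPKM in any library, as were KIF17 and KIF5C of the transport class. KIF26A, KIF26B and KIF7 had the order of KIF1A. KIF7, a regulator of Hedgehog signalling at the cilium tip, was at 3.56 and 2.86 FPKM in the Input labelled DLD-1 and the RIP labelled SW480 and at 0.707 and 0.532 FPKM in the Input labelled SW480 and the RIP labelled DLD-1. For KIF26B these values were 2.37, 1.47, 0.254 and 0.197 FPKM, and for KIF26A 2.69, 2.86, 1.16 and 0.349 FPKM. KIF12 had 13 and 10 reads in the Input labelled DLD-1 and the RIP labelled SW480 and 0 in the others, at least 4.69-fold and 2.83-fold higher against the floor of 3 reads. KIF24, which holds back cilium growth at the mother centriole, ranged from 2.21 to 4.32 FPKM and KIF27 from 2.08 to 2.71 FPKM. KIF9 spanned 0.911 to 2.32 FPKM. KIF6, KIF17, KIF25 and KIF5C stayed at or below 1.15 FPKM.

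Partners of the kinesins were read from a list of adaptors and spindle proteins. All 8 adaptors and accessory subunits (KLC1 to KLC4, KIFAP3, KIF1BP, TRAK1 and TRAK2) had a ratio, with medians of -0.02 in label SW480 and -0.37 in label DLD-1. In the former 1 was 2-fold above Input and in the latter 1 was 2-fold below, against 17.4% and 12.8% of protein-coding genes. KIF1BP, which binds and restrains several kinesins, was above Input under both labels at 0.45 and 0.75. The 10 spindle partners (TPX2, NUSAP1, HMMR, SPAG5, CKAP2, CKAP5, AURKA, PLK1, NDC80 and NUF2) had medians of 0.08 and 0.95, with 6 and 8 above 0, against 58.0% and 52.9% of protein-coding genes. Over the opposite-label Input their medians were 0.33 and 0.36. CENPE, a mitotic kinesin under another symbol, had ratios of -0.07 and 0.67.

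Transcripts of 19 kinesin genes carried an ac4C peak in at least 1 line. SW480 had 18 peaks on 14 kinesin genes, and DLD-1 had 51 peaks on 15. A peak is a stretch where acRIP reads exceed Input reads, and its fold is the authors' enrichment. All of the hosts had an Input of at least 1 FPKM in both Inputs, so they were 14 and 15 of the 28 kinesins, 53.6% in DLD-1. Of protein-coding genes with such an Input, 51.1% hosted a peak in SW480 and 56.8% in DLD-1, close to the kinesin shares. Hosts were higher in Input than other kinesins, with medians of 21.1 against 8.35 FPKM in SW480 and 13.1 against 6.07 FPKM in DLD-1. The same held over protein-coding genes, at 14.2 against 6.90 and 13.9 against 6.68 FPKM. How far level set the calling of peaks was not tested. The median fold of kinesin peaks was 16.2 in SW480 and 16.5 in DLD-1, against 19.8 and 14.7 over peaks on protein-coding genes.

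The lines differed by position, for kinesins as for all protein-coding hosts. In SW480 12 of the 18 kinesin peaks lay in a 3′UTR, 5 in coding sequence and 1, on KIF9, in a 5′UTR. In DLD-1 23 lay in a 3′UTR and 28 in coding sequence. Of peaks on all protein-coding genes, 56.3% in SW480 and 43.2% in DLD-1 lay in a 3′UTR and 25.8% and 40.0% in coding sequence, against 27.8% and 54.9% of kinesin peaks in coding sequence. The mitotic peaks of DLD-1 lay in coding sequence in 18 of 27 cases, 66.7%, against 41.7% of the 24 transport peaks. In SW480 they did so in 2 of 7 cases, 28.6%, against 33.3% of the 9 transport peaks. In DLD-1, KIF2C, KIF4A and KIFC1 had 3 coding peaks each, and KIF11, KIF15, KIF18B and KIF22 had 2 each. KIF3B had the most peaks of any kinesin, 10 in DLD-1 of which 7 were in its 3′UTR, against 1 in SW480. Peaks of 1 transcript share their reads' source and are not independent of each other. Sites of the 12-base pattern counted by the authors were present in 9 of 18 and 27 of 51 kinesin peaks, against 56.2% and 54.8% of peaks on protein-coding genes.

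**Figure D4:**
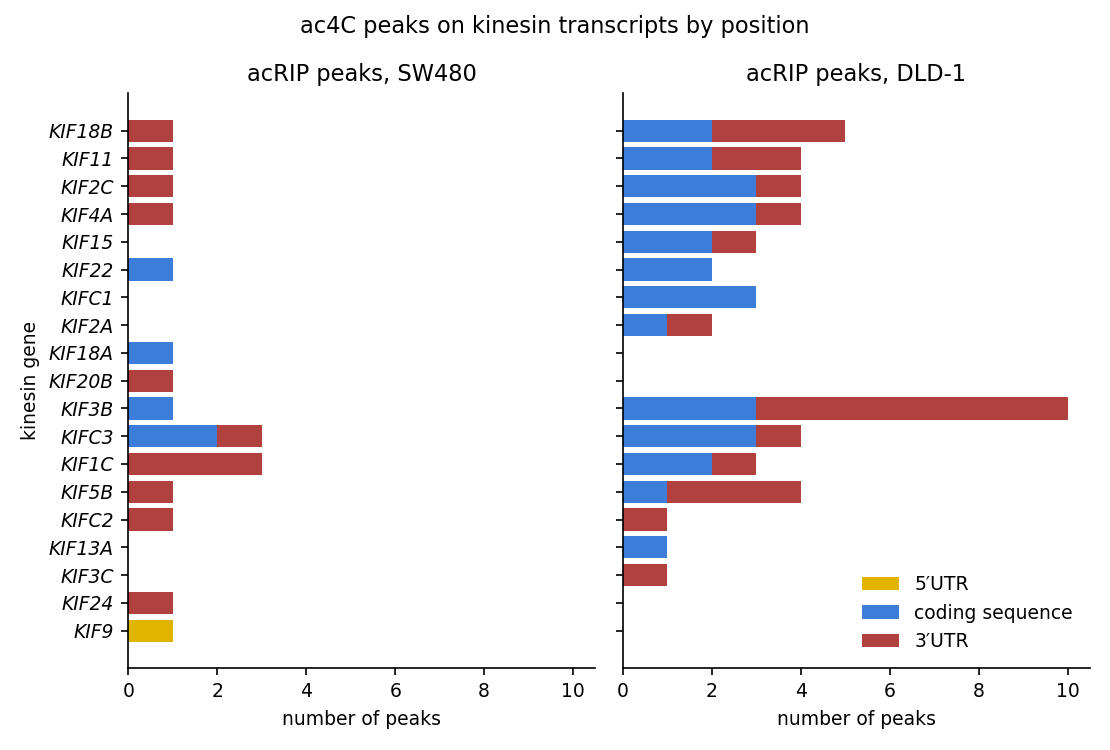
Number of ac4C peaks per kinesin gene in SW480 (left) and DLD-1 (right), coloured by the position given by the authors. SW480 shows 18 peaks, 12 of them in a 3′UTR, and DLD-1 51, of which 28 lie in coding sequence, with 10 on KIF3B.

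Both lines had a peak on 10 kinesin genes, and on each of these a peak of SW480 overlapped one of DLD-1 by at least 1 base. This made 10 of 18 SW480 peaks (55.6%) and 12 of 51 DLD-1 peaks (23.5%), against 55.6% and 35.9% of peaks on protein-coding genes, and 8 of the 10 SW480 peaks lay in a 3′UTR. The peak with the highest SW480 fold was in the 3′UTR of KIF2C, at chr1:44767169-44767677 on GRCh38, with a fold of 238 in SW480 and 50.3 in DLD-1. The 3′UTR of KIFC2 (chr8:144473635-144474112) had 42.7 and 104, and that of KIF5B (chr10:32009040-32009220) had 54.1 and 32.3. For KIF18B (chr17:44925097-44925485) the folds were 40.6 and 12.6, and for KIF1C (chr17:5024441-5024651) 30.2 and 12.6. KIFC3 (chr16:57758307-57758607) gave 17.7 and 31.5, KIF4A (chrX:70420593-70420802) 16.7 and 16.5, and KIF11 (chr10:92655155-92655365) 15.6 and 23.6, all in the 3′UTR. Shared coding peaks were found on KIF22 (chr16:29803409-29803589), with 3.04 and 58.2, and on KIF3B (chr20:32309970-32310090), with 5.73 and 7.87. Neither line was higher throughout, since the fold was larger in SW480 for 5 of the 10 genes.

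A peak was found in 1 line alone for KIF18A, KIF20B, KIF24 and KIF9 in SW480 and for KIF15, KIF2A, KIFC1, KIF13A and KIF3C in DLD-1. The KIF20B peak and 1 of the 3 KIF1C peaks of SW480 had a listed false discovery rate (FDR) above 0.05. Neither line had a peak on the remaining 21 members, which included KIF14, KIF1A, KIF1B and KIF21B. KIF1B was as high as 24.3 FPKM in Input, and KIF21B reached 18.2 FPKM. The kinesins with a peak had median log2 RIP/Input values of -0.58 in label SW480 and 0.58 in label DLD-1, and those without a peak -0.25 and -0.07. Against the opposite-label Input the medians were -0.11 and -0.44 with a peak and 0.06 and -0.38 without, so the kinesin gap in DLD-1 was not kept. Over protein-coding genes with and without a peak, the same-label medians were 0.21 and 0.14 in SW480 and 0.20 and -0.12 in DLD-1. Against the opposite-label Input they were 0.14 and 0.087 in SW480 and 0.18 and -0.033 in DLD-1, where the gap was kept.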

How the data were processed

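The members, the role classes and the partner lists were chosen with earlier results of these data known. RIP libraries and Inputs were taken from a deposited table of FPKM values per Ensembl gene. The submitters' processing notes name cutadapt 2.5, HISAT2 2.1.0 and the builds GRCh38, hg38 and GRCm38, and the counter, the strand setting and the peak caller are not given in the sources used here. The study's text names an IgG control, whereas the table and the labels name Input, which was used. The Inputs deposited with the acRIP data were assigned by label to the same Input samples, read as FPKM and scaled to the median of the RIP-table Inputs. Ratio columns made by the authors were not used. In the deposited peak lists each peak has a p-value, scores giving log10 of that p-value and of the FDR, a fold of acRIP over Input, and a count of pattern sites, all from the authors. Peak starts count from 0 and were moved by 1 base.

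Ratios are log2((RIP FPKM + 1)/(Input FPKM + 1)), which understates changes of low genes, over genes with at least 1 FPKM in both Inputs. FPKM steps gave whole reads, within 0.001, for 23514 of 23515 genes above 0 in at least 2 columns. They are the smallest whole numbers that fit, so counting errors are upper limits, and PCR copies are not covered. Relative to the RIP labelled SW480, the depths of the Input labelled SW480, the RIP labelled DLD-1 and the Input labelled DLD-1 were 0.493, 0.850 and 0.456. The depth of the acRIP libraries is unknown. The depth solver was tested on simulated data. Peaks of the lines were matched block by block on their strand, and 1 base in common made them shared. Values in all libraries are given for members with a mean of at least 5 FPKM or a peak in both lines, and KIF15, KIF7, KIF26A, KIF26B and members at 0 in a library were added after their values were seen. Python 3.11.15, pandas 2.3.3 and matplotlib 3.10.9 were used. With 1 library per group no test was run. Other pseudocounts, Input filters, centring, Inputs, class members, ratios and peak thresholds were tried as alternatives.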

Additional observations from a re-analysis of the deposited data

Results flagged for a closer look

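The RIP/Input ratio lay on opposite sides of 0 in the libraries labelled SW480 and DLD-1, beyond 2 counting standard errors in each, for 14 of the 24 kinesins given with all values, and these differences between labels were not tested. Of the 28 kinesins with an Input of at least 1 FPKM in both Inputs 15 did so, 53.6%, against 36.0% of protein-coding genes, a share that also depends on read number. The difference in log2 ratio, SW480 minus DLD-1, was -1.61 for the median of the mitotic kinesins. Among the 7 mitotic genes it was -3.57 for KIFC1, -2.84 for KIF18B, -2.24 for KIF11, -2.05 for KIF2C, -1.75 for KIF20B, -1.32 for KIF22 and -0.82 for KIF14, so all 7 were lower in label SW480. Of the 7 transport genes, KIFC2 (-2.64), KIF1B (-0.94), KIF21A (-0.83) and KIF5B (-0.80) were lower in label SW480. KIF1A (6.91), KIF3C (1.97) and KIF13A (0.50) were higher there. Each RIP library resembled the Input of the other label in the kinesins, and whether the labels, the lines or the pulldown give these differences cannot be told apart here.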

How the results depend on the processing

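With 1 library per group, 47 alternative values were computed and none could be tested. The choice of Input moved the results most. Over the opposite-label Input the mitotic median log2 RIP/Input reversed from -0.61 to 0.34 in label SW480 and from 1.01 to -0.22 in label DLD-1, and the transport median went from -0.42 to 0.060 and from -0.10 to -0.41. Counts of kinesins 2-fold from Input then went to 0, from 5 below in label SW480 and from 6 above and 2 below in label DLD-1. KIF21B then lay just short of 2-fold below, at -0.999 and -0.993. With the acRIP-table Input of the same label the mitotic medians were -1.07 and 0.76. With that of the other label the mitotic medians were -0.021 and -0.47, the latter reversed, and the transport medians -0.20 and -0.52. Centring on the median of protein-coding genes gave -0.79 (mitotic) and -0.59 (transport) in label SW480. A pseudocount of 0.1 FPKM gave 1.14 for the mitotic median in label DLD-1. No filter on Input gave 0.84 for it, and -0.049 for the transport median in label SW480, which was -0.14 without KIF21A and KIF21B. At a ratio of 1.5, 1 kinesin was above and 11 were below Input in label SW480, and 5 were below in label DLD-1. Kinesin genes with a peak in SW480 went from 14 to 7 at a fold at or above the median of the list and to 6 at a p-value under it. Shared peaks went from 10 to 6 when 50% of each had to overlap. The other 22 values moved by less than 2 counting standard errors of a typical gene of the class or, for counts, by at most 1.5 times. The cause was not tested for any of these shifts. No paired analysis was possible because no test was run and each group held 1 library.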

Other observations

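The peak list called on the pooled acRIP libraries held 46 peaks on 17 kinesin genes, 24 of them in a 3′UTR and 21 in coding sequence. Its mitotic peaks lay in coding sequence in 14 of 23 cases and its transport peaks in 7 of 21. KIF3B had the most peaks here too, with 7, and KIF11 and KIF5B had 5 each. KIF20B and KIF3C, which had a peak in 1 line alone, had none in the pooled list. The left-out relatives KIF23 and KIF20A, which act in the central spindle, had log2 RIP/Input values of -0.84 and -0.84 in label SW480 and of 0.64 and 0.87 in label DLD-1. With the opposite-label Input these were -0.06 and 0.18 for the RIP labelled SW480 and -0.13 and -0.15 for the RIP labelled DLD-1.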
